A study of Mus musculus with 10 samples.

Results

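Zinc and copper handling genes were followed in epididymal white adipose tissue (eWAT) of 10 mice injected with the iron chelator desferrioxamine (DFO). The 35 genes were chosen by name, as the metallothioneins Mt1 to Mt4, the zinc sensor Mtf1, the 10 ZnT zinc transporters of the Slc30a family, the 14 ZIP transporters of the Slc39a family, and 6 copper genes. All 35 had a probe, with 44 of the 55681 probes of the array between them. The signal was well above background in at least 5 of 10 mice for 27 members, and these are called expressed here, as are 27811 probes of the array.

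Zinc and copper cannot be made or destroyed by a cell, so their levels are set by proteins that carry, bind and store them. ZIP transporters bring zinc into the cytosol from outside or from organelles, and ZnT transporters move it the other way. Metallothioneins are small cysteine-rich proteins that bind zinc and copper, and their genes are switched on by Mtf1 when free zinc is high and by glucocorticoids. Copper enters through Slc31a1 (Ctr1), is passed on by chaperones such as Atox1, and is loaded into the secretory pathway or exported by the pump Atp7a.

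The mice were male C57BL/6JOlaHsd wildtypes, given as strain C57BL/6J in the sample labels and aged 9 weeks at the start. They ate a purified low fat diet for 3 weeks and a high-fat diet (HFD) for 12 weeks, all at thermoneutrality (29 °C), and then received DFO at 100 mg/kg body weight daily for 5 days. They were killed on day 6 after 2 hours without food. Every array held 1 mouse in the red dye (Cy5) against a common pool in the green dye (Cy3), made from all mice of a larger set of experiments with untreated controls. Values are log2 ratios of mouse to pool. All 10 arrays belong to the 1 DFO group, so differences between mice were described, not an effect of DFO. The dyes were not swapped and the pool holds RNA of these mice too, so no ratio was tested against 0. The labels number the samples as replicates of individual RNA, taken here as 1 mouse each.

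All 8 adipocyte markers examined, Adipoq and Plin1 among them, were above background on every array. The mice were uneven as a whole. The main component of all expressed probes held 75.1% of the variance and set mice 4, 5, 6 and 7 apart from the other 6. The second component, with 8.80%, set mouse 2 apart. The mean log2 ratio of the adipocyte markers was -2.16 to -1.20 in mice 4 to 7 and -0.10 to 0.65 in the other 6. The mean of the 6 macrophage markers was 0.66 to 0.94 in mice 4 to 7 and -0.98 to -0.06 in the others. Fewer cells of a type and less RNA per cell cannot be told apart in such tissue RNA. These 4 mice are no group of the study, so nothing was averaged or tested over them, and their part in any result below was not tested beyond giving the result without them.

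The 8 members that were not expressed were Mt4, the ZnT members Slc30a2, Slc30a3, Slc30a8 and Slc30a10, the ZIP members Slc39a5 and Slc39a12, and the copper pump Atp7b. Their probes were well above background on 0 to 3 of 10 arrays. Several are best known from other organs, as Slc30a8 from pancreatic beta cells, Slc30a3 from synaptic vesicles and Atp7b from liver.

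The metallothionein genes lie side by side on chromosome 8, in the order Mt4, Mt3, Mt2, Mt1, and in the GRCm38.p6 assembly only 5315 bases separate Mt2 from Mt1. Mtf1 acts through metal response elements (MREs), searched here as TGCACNC or TGCGCNC on both strands and printed in capitals. Stretches from the promoter windows of 3 known Mtf1 targets are shown for this reason. They come from RefSeq, and are written on the plus strand of GRCm38.p6. For Mt2 the 250 bases before its start are given (chr8:94172368-94172617). For Mt1 (chr8:94179056-94179082) and the zinc exporter Slc30a1 (chr1:191906728-191906754) only the match with 10 bases on each side is given. The gene table has transcripts of both that begin further upstream, so these short stretches lie inside the gene spans of that table.
Mt2: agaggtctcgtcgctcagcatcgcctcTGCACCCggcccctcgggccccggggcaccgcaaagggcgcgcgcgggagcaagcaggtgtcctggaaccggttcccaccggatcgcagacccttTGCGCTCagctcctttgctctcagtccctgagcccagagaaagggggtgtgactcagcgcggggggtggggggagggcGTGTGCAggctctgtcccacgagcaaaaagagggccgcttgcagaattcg
Mt1: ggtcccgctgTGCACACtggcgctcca
Slc30a1: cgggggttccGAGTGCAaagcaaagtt
The 3 matches of Mt2 began 223, 128 and 50 bases before the start of the gene, the match of Mt1 23 bases and that of Slc30a1 43 bases before the start used in the promoter table. RefSeq promoters were at hand for 31 members in 37 windows of 250 bases. An MRE match was found in 19 of the 37 windows (51.4%) and in 21.4% of all 32851 promoter windows of the table. The member windows were richer in G and C, with a median of 60.4% against 52.4%, and the part of base composition in the higher share was not tested. Mt2 and Slc30a10 had at least 3 matches, as had 1.26% of all windows. A match is a run of letters in a window, not a site in use.

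Mt1 and Mt2, which are induced together by metals, were both highest in mouse 1, and the low values of Mt2 in mice 4 to 7 had no like in Mt1. The array tells the 2 genes apart, because their 60-base probes share no run longer than 7 bases. Their first 30 bases show this, for probes at chromosome 8, 96704165 to 96704224 and 96697371 to 96697430 in mm9.
Mt1 probe: cctgtttactaaacccccgttttctaccga
Mt2 probe: agaagcctagccttttttgtacaaccctga
For Mt1 the log2 ratio was 0.88 in mouse 1, 0.24 in mouse 2, -0.06 in mouse 3, -0.08, -0.16, 0.09 and -0.02 in mice 4 to 7, 0.24 in mouse 8, 0.10 in mouse 9 and -0.15 in mouse 10. Mouse 1 stood above the other 9 mice on this probe. For Mt2 the log2 ratio was 1.40 in mouse 1, 0.04 in mouse 2, 0.14 in mouse 3, -0.89, -0.92, -0.56 and -1.07 in mice 4 to 7, and 0.28 and 0.37 in mice 8 and 9. The spot of mouse 10 was marked as uneven by the scanner software and left out. Mouse 1 was again the highest, but mice 4 to 7 were the 4 lowest for Mt2, though not with each array centred on its median, and lay among the others for Mt1. The difference between the genes was not tested. From the lowest to the highest mouse the span was 5.54-fold for Mt2 and 2.05-fold for Mt1. A second, dimmer Mt1 probe did not show the high value of mouse 1. It gave -0.07 there, within a range of -0.39 to 0.14, and did not pass the test of spread described below (adjusted p = 0.109), so the Mt1 value of mouse 1 rests on 1 of 2 expressed probes. No pixel of either gene was saturated, and the raw Mt1 signal in Cy5, 23802 to 88974, was below that of the brightest spot of each array, 167446 to 345419.

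Mt3, known best from brain, was expressed too. Its log2 ratio ran from -0.16 in mouse 9 through a median of 0.47 to 0.66 in mouse 2, and mice 4 to 7 (0.42 to 0.64) lay among the others. Mtf1 varied least of all 27 expressed members, with an SD of 0.080 and values from -0.11 to 0.16, although the dimmer of its 2 expressed probes did vary more in Cy5 than in Cy3 in the test described next (adjusted p = 0.00336).

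**Figure D1:**
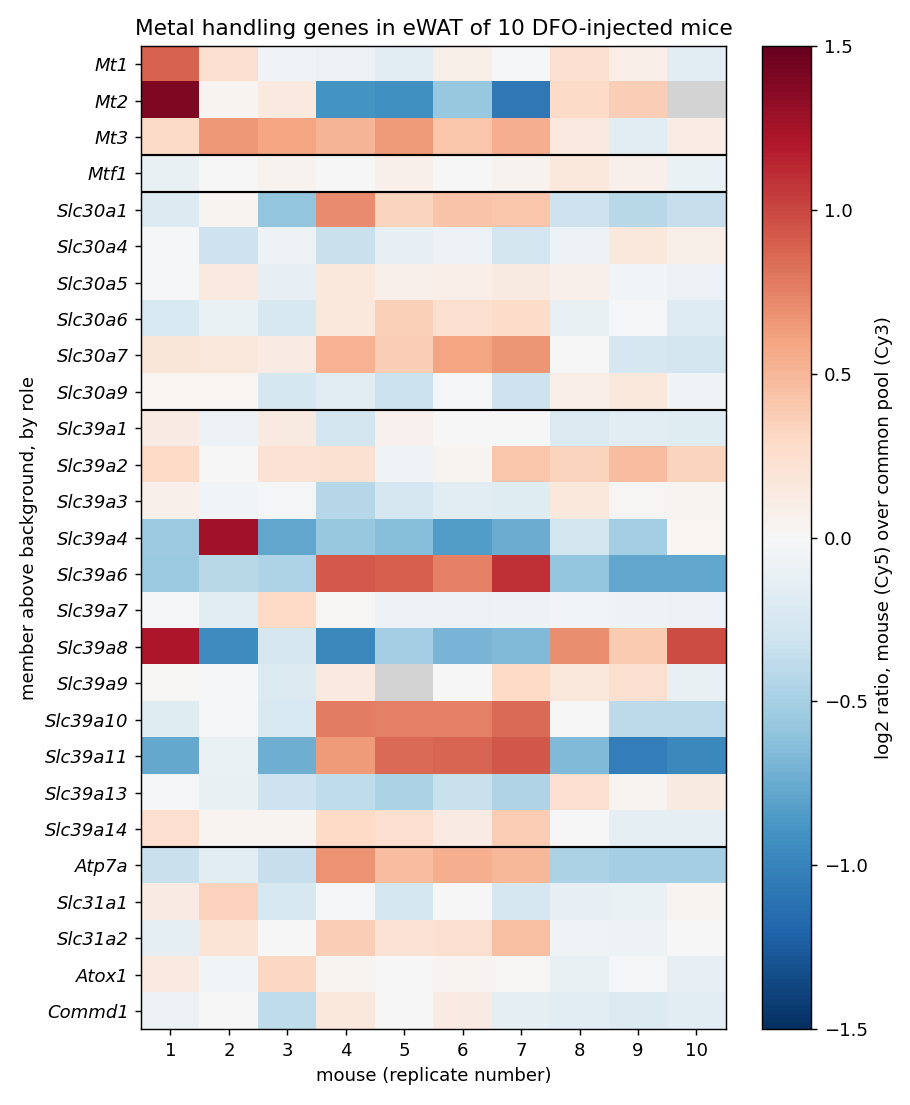
Log2 ratio of each mouse to the common pool (colour) for the 27 expressed members (rows, grouped by role from metallothioneins to copper genes) in the 10 DFO-injected mice (columns), after loess normalization; grey marks a spot left out. Mice 4 to 7 form a red block for Slc39a6, Slc39a10, Slc39a11 and Atp7a, and Mt2 is blue there while Mt1 is near 0.

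The spread over mice in Cy5 was then set against the spread of the same pool over the same arrays in Cy3. A pass says only that separate mice varied more than repeats of 1 pool, after a normalization between arrays that itself lowers the Cy3 spread. The Pitman-Morgan test, which compares 2 variances measured on the same arrays, was run for every probe well above background in both dyes, with Benjamini-Hochberg adjustment over all of them. Cy5 varied more than Cy3 for 21 of the 26 members that could be tested (80.8%), and less for none, but with spots marked as outliers kept Slc39a9 varied less (SD ratio 0.897, adjusted p = 0.00712). Of all 25137 probes tested, 59.7% varied more in Cy5 and 0.163% varied less. The median ratio of the SD in Cy5 to that in Cy3 was 4.32 over members and 2.48 over all probes. These are unlike sets, since each member stands for its brightest probe, while all probes include dimmer ones of the same gene. Dimmer probes of Mt1 (adjusted p = 0.109), Slc30a7 (0.927 and 0.589) and Slc30a9 (0.334) did not pass. Those of Mtf1 (0.00336) and Slc31a2 (0.0357) did. The largest ratios belonged to the ZIP genes Slc39a11 (15.1, adjusted p = 7.02e-07) and Slc39a8 (13.7, adjusted p = 1.38e-06). Mtf1 (adjusted p = 0.327), Slc30a4 (0.190), Slc30a5 (0.139), Slc39a9 (0.288) and Commd1 (0.0516) did not pass the threshold of 0.05, and Slc39a2 was too dim in the pool to be tested.

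The count leaned on the scaling of the arrays and on mice 4 to 7. It was 12 with each array centred on its median in place of an intensity-dependent curve, where 40.4% of all probes were called. Without normalization between arrays it was 8, with 18.7% of all probes called. Without mice 4 to 7 it was 9, with 14.2% of all probes called. The 7 members called under every alternative that kept all 4 of these mice were Slc30a1, Slc39a4, Slc39a6, Slc39a8, Slc39a10, Slc39a11 and Atp7a, and Slc39a4, Slc39a8 and Slc39a11 passed without them as well. Mt1 and Mt2 passed without mice 4 to 7 (adjusted p = 0.00769 and 0.0154), but neither passed without normalization between arrays.

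**Figure D2:**
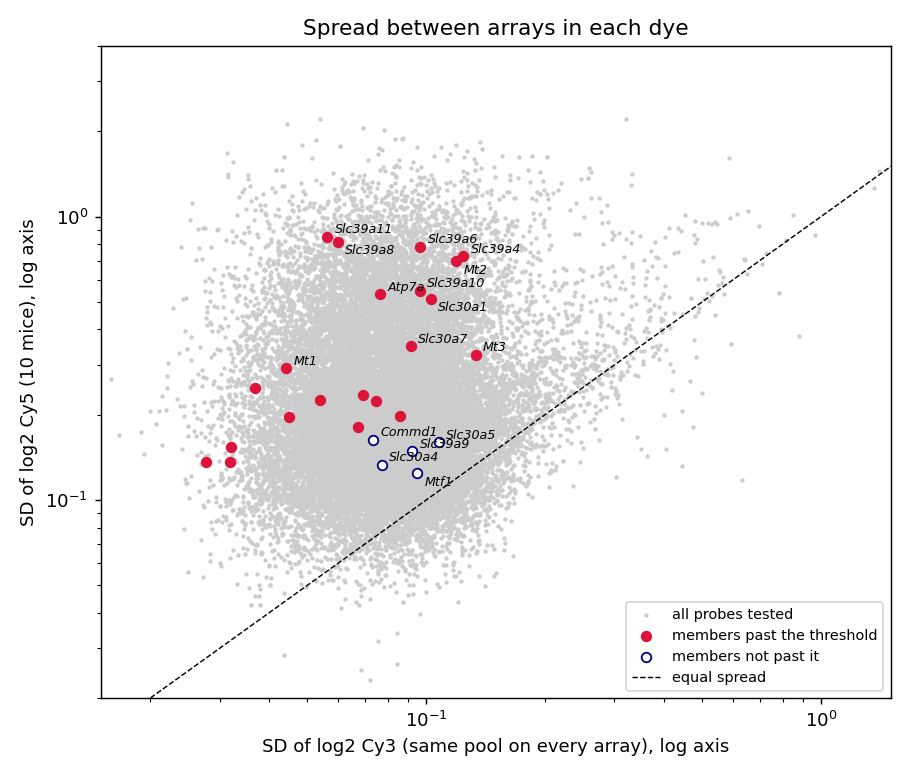
Standard deviation of log2 Cy5 over the 10 mice (vertical, log axis) against that of log2 Cy3, the same pool on every array (horizontal, log axis), for all 25137 probes tested (grey), the 21 members past the threshold (red) and the 5 not past it (open). All 26 members lie above the dashed line of equal spread, with Slc39a11 and Slc39a8 farthest from it.

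Zinc importers held 4 of the 5 largest SDs over mice. Of 14 ZIP members 12 were expressed and 10 passed the test, with SDs of the log2 ratio from 0.127 for Slc39a7 to 0.835 for Slc39a11. Over all probes tested, 59.7% varied more in Cy5. The family held several patterns. Slc39a6, Slc39a10 and Slc39a11 were highest in mice 4 to 7, Slc39a3 and Slc39a13 were lowest there, and Slc39a8, Slc39a4 and Slc39a7 followed other mice. For all expressed members together, mice 4 to 7 held the 4 highest values in 8 and the 4 lowest in 3. Over all expressed probes these shares were 17.9% and 21.3%.

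Slc39a11 (ZIP11), which stands apart from the other ZIP proteins in sequence, gave a log2 ratio of -0.77 in mouse 1, -0.10 in mouse 2, -0.73 in mouse 3, 0.64, 0.85, 0.88 and 0.94 in mice 4 to 7, and -0.66, -1.04 and -0.97 in mice 8 to 10. The mean was -0.10 ± 0.83 (SD, n = 10), and no value of mice 4 to 7 overlapped the others. Its probe lies at chromosome 11, 113106171 to 113106230 in mm9, and a second probe named for the gene was not above background on any array. Without mice 4 to 7 the SD in Cy5 was still 6.73 times that in Cy3 (adjusted p = 0.0191).

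Slc39a6 (ZIP6) and Slc39a10 (ZIP10), close relatives that are known to form a complex in the cell membrane, had like patterns. Slc39a6 ranged from -0.78 to -0.42 in mice 1 to 3 and 8 to 10, and was 0.92, 0.89, 0.75 and 1.10 in mice 4 to 7. Slc39a10 ranged from -0.39 to 0.01 in the former and was 0.76, 0.76, 0.75 and 0.85 in mice 4 to 7. For both genes the 4 mice lay above all others with a clear gap, while the other 6 mice lay close together: without mice 4 to 7 neither passed the test (adjusted p = 0.608 and 0.719).

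Slc39a8 (ZIP8) and Slc39a14 (ZIP14), the pair known to carry iron and manganese as well as zinc, differed in range and in the order of the mice. Slc39a8 was 1.21 in mouse 1, -0.94 in mouse 2, -0.25 in mouse 3, -0.96, -0.51, -0.69 and -0.67 in mice 4 to 7, and 0.70, 0.40 and 0.98 in mice 8 to 10. Mouse 2 was as low as mice 4 to 7, so the order was not that of the main component. The span was 4.51-fold, and without mice 4 to 7 the SD ratio was 14.7 (adjusted p = 0.00731). Slc39a14 spanned only 1.44-fold, from -0.15 in mouse 9 through a median of 0.09 to 0.38 in mouse 7, and its values in mice 4 to 7 (0.13 to 0.38) overlapped those of the others. Across the 6 mice that lay together the pair gave r = 0.068 (exact permutation p = 0.876).

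Slc39a4 (ZIP4), the intestinal importer whose loss causes the zinc deficiency disease acrodermatitis enteropathica, was high in mouse 2 alone. Its log2 ratio was 1.25 in mouse 2, 0.02 in mouse 10, and between -0.84 and -0.28 in the other 8 mice. The mean was -0.36 ± 0.62 (SD, n = 10). The spread among the other 9 mice, a separate matter from the value of mouse 2, passed the test as well (SD ratio 4.86, adjusted p = 0.00153). Mouse 2 also had the highest mean of the sperm markers, -1.02 against -2.79 to -2.10 in the other 9 mice, 3 of these 4 markers being expressed. None of 5 epididymis markers was above background on 5 arrays, but Adam7 was so in mouse 2 alone, at -0.11 against -1.01 to -0.63 in the others. Krt19, a mesothelium marker found in other epithelia, and Lcn2 were also highest in mouse 2, at 0.65 and 1.54. The rest of their lists did not share this. Outside mice 4 to 7, mouse 2 was the lowest for the mesothelium markers Msln (-0.96), Upk3b (-0.98), Lrrn4 (-0.98) and Wt1 (-0.49). Of the acute phase genes listed with Lcn2, Saa3 and Hp were highest in mouse 1 and Orm1 in mouse 9. The part of other tissue in the Slc39a4 value was not tested.

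**Figure D3:**
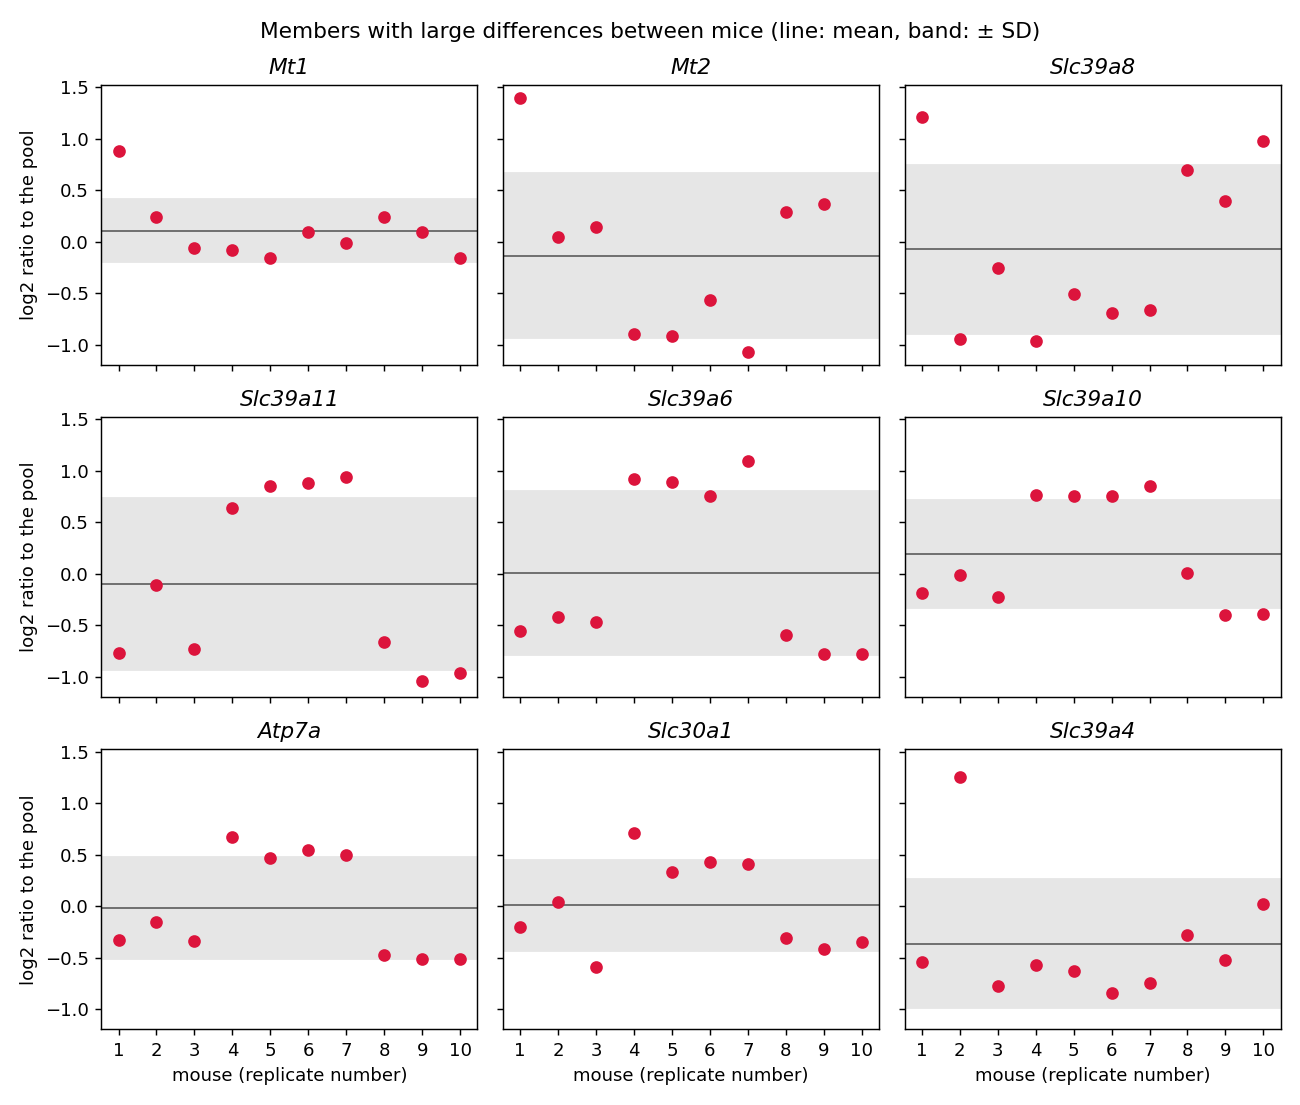
Log2 ratio to the pool (vertical) in each of the 10 mice (horizontal, replicate number) for 9 members; points are mice, the line is the mean and the band is ± 1 SD. Slc39a11, Slc39a6, Slc39a10, Atp7a and Slc30a1 have their 4 highest points in mice 4 to 7, Mt1 stands out in mouse 1 and Slc39a4 in mouse 2.

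The other ZIP genes varied less. Slc39a13 (ZIP13), an importer of the secretory pathway needed by connective tissue, was -0.48 to -0.33 in mice 4 to 7 and -0.31 to 0.26 in the others, and passed the test (adjusted p = 6.67e-05). Slc39a3 was -0.43 to -0.16 in mice 4 to 7 and -0.05 to 0.16 in the others (adjusted p = 0.0338). With median centring neither gene nor Mt2 kept its 4 lowest values in mice 4 to 7. In the values deposited by the authors Slc39a13 and Slc39a3 overlapped too, while Mt2 kept its 4 lowest there. Slc39a7 (ZIP7), which releases zinc from the endoplasmic reticulum, was 0.30 in mouse 3 and -0.17 to 0.02 in the others, and Slc39a1 ran from -0.28 to 0.14. Both passed the test (adjusted p = 8.97e-04 and 4.49e-04), with Cy3 SDs of 0.0319 and 0.0278. Under median centring the SD of Slc39a7 was smaller in Cy5 than in Cy3, and Slc39a7 was lowest in mouse 3 and highest in mouse 7. In the values deposited by the authors it was highest in mouse 4. Both its call and its order of mice thus rest on the normalization. Slc39a2 ran from -0.05 to 0.46 and Slc39a9 from -0.21 to 0.30, with 1 mouse left out for a marked spot.

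Among the zinc exporters the span over mice was at most 2.46-fold. Of 10 ZnT members 6 were expressed and 4 passed the test, with SDs from 0.0993 for Slc30a5 to 0.440 for Slc30a1. The share that varied more in Cy5 over all probes tested was 59.7%. Slc30a1 (ZnT1), the exporter of the plasma membrane, was 0.71, 0.33, 0.42 and 0.41 in mice 4 to 7 and ran from -0.59 in mouse 3 to 0.04 in mouse 2 among the others (adjusted p = 4.03e-05). Mice 4 to 7 thus had the 4 highest values of this Mtf1 target and, unless arrays were centred on their median, the 4 lowest of Mt2, another one.

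Slc30a7 (ZnT7), a transporter of the Golgi, was 0.52, 0.36, 0.59 and 0.66 in mice 4 to 7 and -0.27 to 0.18 in the others (adjusted p = 0.00205). Its 2 dimmer probes, each above background on 9 arrays, did not pass (adjusted p = 0.927 and 0.589), so this gene rests on 1 of 3 probes. Slc30a6, which works in the same compartment as a dimer with Slc30a5, was 0.16 to 0.36 in mice 4 to 7 and -0.24 to -0.02 in the others (adjusted p = 0.00164). Slc30a5 itself spanned only 1.21-fold, and Slc30a4, a transporter of secretory vesicles, 1.41-fold. Slc30a9 passed with 1 of its 2 probes, at values from -0.32 to 0.16 (adjusted p = 0.0178, against 0.334 for the other probe).

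Among the copper genes 5 of 6 were expressed and 4 passed the test, which 59.7% of all probes tested passed with more spread in Cy5. Atp7a, the pump that loads copper into secreted enzymes and exports the excess, was -0.33 in mouse 1, -0.15 in mouse 2, -0.34 in mouse 3, 0.67, 0.47, 0.55 and 0.49 in mice 4 to 7, -0.48 in mouse 8, and -0.51 in both of the last mice. The 4 mice lay above all others, with a span of 2.27-fold over all 10 (adjusted p = 2.62e-05). Slc31a2 (Ctr2), found on endosomes and lysosomes, was 0.22 to 0.45 in mice 4 to 7 and -0.13 to 0.20 in the others, and its second probe gave the same split at 0.24 to 0.50 and -0.10 to 0.21. With median centring the values of Slc31a2 overlapped. The importer Slc31a1 did not share it: its highest value was 0.35 in mouse 2, and mice 4 to 7 lay between -0.26 and 0.01. The chaperone Atox1 was 0.31 in mouse 3 and between -0.12 and 0.15 in the others. Under median centring its SD was smaller in Cy5 than in Cy3, and Atox1 was lowest in mouse 3 and highest in mouse 7. In the values deposited by the authors it was highest in mouse 7 too, so its order of mice rests on the normalization. Commd1, which takes part in copper export, ran from -0.38 in mouse 3 to 0.15 in mouse 4.

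**Figure D4:**
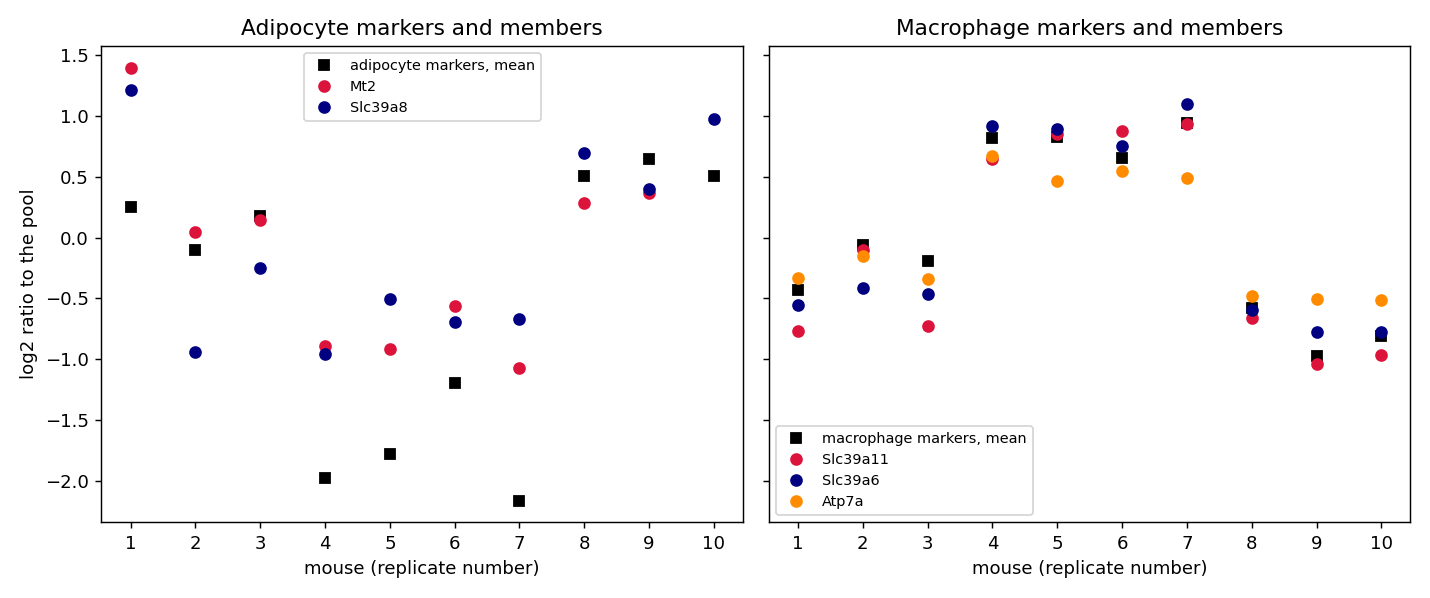
Log2 ratio to the pool (vertical) in each mouse (horizontal) for the mean of the adipocyte markers with Mt2 and Slc39a8 (left), and the mean of the macrophage markers with Slc39a11, Slc39a6 and Atp7a (right). In mice 4 to 7 the adipocyte mean is -2.16 to -1.20 and the macrophage mean 0.66 to 0.94, and the members plotted beside each lie on the same side of 0 there.

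Whether members varied with each other, or with the marker lists, was examined in 18 pairs over the 6 mice that lay together, since all 10 fell into separate clusters. The 16 pairs that could be measured gave 0 past the threshold by exact permutation tests, two-sided and with Benjamini-Hochberg adjustment, where 6 mice allow no p below 0.00278. Only 2 had an unadjusted p under 0.05. Atp7a followed the mean of the macrophage markers with r = 0.907 (exact p = 0.0111, adjusted p = 0.133) and Spearman's rho = 0.886 (exact p = 0.0333, adjusted p = 0.533), and r was 0.866 without the 2 farthest mice. Slc39a14 followed Saa3, an acute phase gene, with r = 0.882 (exact p = 0.0167, adjusted p = 0.133) and rho = 0.714 (exact p = 0.136, adjusted p = 0.671), and r was 0.787 without the 2 farthest mice. Slc39a14 and the transferrin receptor gene Tfrc gave r = 0.533 (exact p = 0.269), and r = -0.803 without the 2 farthest mice, so their relation rests on those mice. Both pairs with Mt2 needed the spot of mouse 10. With that spot kept, Mt1 and Mt2 gave r = 0.927 (exact p = 0.0319, adjusted p = 0.192) and rho = 0.714 (exact p = 0.136, adjusted p = 0.612). Mouse 1 was the highest of the 6 mice for both genes.

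Of 27 other genes of copper and zinc handling 24 were expressed and 23 could be tested. Cy5 varied more than Cy3 for 20 and less for none, and for 6 without mice 4 to 7. Over all probes tested, 59.7% varied more in Cy5, and 14.2% without mice 4 to 7. Sod3, the secreted copper and zinc superoxide dismutase, had an SD of 1.02. It was -2.01 to -1.10 in mice 4 to 7 and 0.12 to 0.46 in the others. The copper-carrying iron oxidases Cp and Heph had SDs of 0.558 and 0.623, and the copper and iron reductase Steap4 had an SD of 0.675. These genes too were lowest in mice 4 to 7. Without those mice Cp and Steap4 passed the Pitman-Morgan test (adjusted p = 0.0295 and 0.0417), and Sod3 and Heph did not (0.0805 and 0.154). The copper chaperones Ccs (adjusted p = 0.247), Cox17 (0.197) and Sco1 (0.185), which serve superoxide dismutase and cytochrome oxidase, did not pass, whereas Cox11 (9.95e-04), Cox19 (2.97e-05) and Sco2 (0.00148), which also serve cytochrome oxidase, did. Dbh, Tmem163 and Gpr39 were not expressed.

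Several marker means also split mice 4 to 7 from the rest. Beside the adipocyte and macrophage lists, the mean of the 4 endothelium markers was -0.61 to -0.35 in mice 4 to 7 and -0.09 to 0.25 in the others, that of the 5 mesothelium markers -1.40 to -0.85 and -0.55 to 0.52, and that of the 3 expressed lymphocyte markers -0.32 to -0.28 and 0.06 to 0.36. Not every marker in these lists split. Kdr was 0.01 to 0.19 in mice 4 to 7 and -0.16 to 0.68 in the others, and Cd3e -0.08 to 0.21 and -0.12 to 0.79. The mesothelium markers Wt1, Upk3b and Lrrn4 overlapped too, with mouse 2 at -0.49, -0.98 and -0.98. The other expressed markers of these lists did split. Of 5 glucocorticoid-induced genes, Fkbp5, Tsc22d3, Per1 and Zbtb16 were lowest in mice 4 to 7, with Zbtb16 at -1.96 to -1.55, while Sgk1 was highest there, at 0.54 to 0.89 against -0.90 to -0.15. The mean of the list was -0.58 to -0.50 in mice 4 to 7 and -0.25 to 0.50 in the others. The 4 acute phase genes were mixed, with a mean that met at -0.38 between mice 4 to 7 and the others, and Lcn2 was lower in mice 8 to 10 (-0.91 to -0.73) than in mice 4 to 7 (-0.65 to -0.19). Slide, with 2 arrays on each of 5 slides, passed the limma F test for 0 of 25 members measured on all arrays, with 0 at an unadjusted p under 0.05, and for 0.0% of 27718 probes, with 1136 unadjusted. Mice 4 and 7 each shared a slide with a mouse from the other 6.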

How the data were processed

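Members were found by the gene name of non-control probes, and the members and all gene lists were chosen with earlier results of these data known. Total RNA of eWAT was labelled and hybridised to Agilent two-colour arrays, and the authors deposited scanner intensity values from Agilent Feature Extraction 10.7.3.1, given in their processing notes, with a table of 30733 log2 values. This table followed log2 Cy5 intensity (r 0.994 to 0.999 per array) and served as an alternative; how it was normalized and filtered is not given in the sources used here. The log10 ratios of red to green in the deposited scanner files, which the software had background-subtracted and dye-normalized, served as another.

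Intensities were background corrected (normexp, offset 50), loess normalized within and Aquantile normalized between arrays in limma 3.58.1 (R 4.3.3). Aquantile makes average intensities alike on all arrays, which lowers the Cy3 spread. Spots marked as outliers (247 to 344 per array, 2 of members) were left out, and spots of a probe were averaged. A gene was represented by its brightest probe. Probes well above background in Cy5 on at least 5 of 10 arrays counted as expressed, 25137 of them in both dyes. Between 24938 and 30527 probes per array were well above background in Cy5, none was saturated, and the number of arrays limits the precision.

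All expressed members were described, by role. Variances were compared by the Pitman-Morgan test on at least 8 arrays, slides by limma's F test, and relations by exact permutation in Python 3.11.15 with scipy 1.17.1. The variance and slide tests were tested on simulated data. Probe positions are those of the scanner files in mm9, which was not mixed with the GRCm38.p6 positions of RefSeq. Exon and UTR positions of probes were not analysed here. Alternatives covered background, normalization, filters, test, slide, probe choice, each mouse left out, and spots marked as outliers kept, the last chosen after seeing the data.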

Additional observations from a re-analysis of the deposited data

Results flagged for a closer look

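In 3 of 27 expressed members 1 mouse lay far from the rest by Dixon's criterion for 10 samples, where chance marks about 1 in 20 groups and 5.20% of all 27811 expressed probes were so marked. The gap to the nearest mouse, as a share of the whole range, was 0.615 for Mt1 with mouse 1 highest, 0.587 for Slc39a4 with mouse 2 highest, and 0.591 for Slc39a7 with mouse 3 highest. The Mt1 value rests on 1 of 2 expressed probes. The Slc39a7 value rests on the normalization, since with median centring mouse 3 was the lowest and mouse 7 the highest. Among the mice left without the flagged one, the SD ratio of Cy5 to Cy3 was 3.18 for Mt1 (adjusted p = 0.0148), 4.86 for Slc39a4 (adjusted p = 0.00153) and 2.09 for Slc39a7 (adjusted p = 0.0441).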

How the results depend on the processing

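The count of 21 members with more spread in Cy5 was 12 with median centring, 8 without normalization between arrays, 10 with each channel scaled to its own median and 9 without mice 4 to 7. In the same order, the count of all probes was 10144, 4698, 8287 and 3562. Leaving out 1 mouse at a time gave 19 to 22 members and 13545 to 14457 probes. The SD ratio turned below 1 for Slc39a7 (0.580, 0.687 and 0.765) and Atox1 (0.718, 0.765 and 0.951) with median centring, without normalization between arrays and with channel medians, and for Slc39a9 with outlier spots kept (0.897, adjusted p = 0.00712). Under median centring all expressed probes had a median log2 ratio of 0.32, against 0.00, and moved the mean of 19 members by over 1 SD. With it mice 4 to 7 held the 4 highest values of 7 members and the 4 lowest of 0, and in the deposited values of 11 and 1. The shares over all expressed probes under these settings are not at hand. A change of the members thus cannot be told apart from one of the whole array. The cause of these shifts was not tested.

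With all 10 mice, which fall into separate clusters, 5 relations passed by r. They were Mt1 with Mt2 (r = 0.847, over the 9 mice with an Mt2 value) and Slc39a14 with Tfrc (0.802) and with adipocyte markers (-0.830). The others were Atp7a (0.969) and Slc31a2 (0.90) with macrophage markers. Mt1 with Mt2 did not pass by Spearman's rho (permutation test, adjusted p = 0.0765). Mouse 1 was highest for both genes, and its Mt1 value rests on 1 of 2 expressed probes. Other relations, none of them past the threshold, turned sign with all 10 mice. These were Mt1 with Slc30a1 (-0.231), with macrophage markers (-0.331) and with adipocyte markers (0.389), and Slc39a8 with Slc39a14 (-0.458). They were also Slc31a1 with Slc31a2 (-0.140) and with Atp7a (-0.224), Slc30a7 with Slc39a7 (-0.031), and Slc39a14 with Saa3 (-0.190). Median centring turned Mt1 with Mtf1 (0.633) and with adipocyte markers (0.602), and Slc39a14 with adipocyte markers (0.596). The mean over probes turned Mt1 with Mtf1 (0.174) and Slc30a7 with Slc39a7 (-0.355), and the deposited values turned Atp7a with Atox1 (-0.049), Slc30a5 with Slc30a6 (-0.045) and Mt1 with adipocyte markers (0.143). Without the 2 farthest mice r was 0.206 for Mt1 with Mtf1, -0.803 for Slc39a14 with Tfrc, -0.276 for Slc31a1 with Slc31a2, -0.081 for Slc30a7 with Slc39a7 and -0.013 for Mt1 with macrophage markers. Leaving out 1 mouse at a time gave r of -0.738 to 0.665 for Mt1 with Mtf1, -0.193 to 0.899 for Slc39a14 with Tfrc, -0.730 to 0.311 for Slc39a8 with Slc39a14, -0.534 to 0.874 for Slc31a1 with Slc31a2, and -0.078 to 0.598 for Slc30a7 with Slc39a7. No paired analysis was possible because all samples belong to 1 group. The slide as a block was not run for relations, as the 6 mice leave too few slides with 2 of them.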
